A study of Mus musculus with 6 samples.

Results

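miR-138 is a microRNA (miRNA) made from the Mir138-1 and Mir138-2 precursors, and its 3 arms in the count tables, mmu-miR-138-5p, mmu-miR-138-1-3p and mmu-miR-138-2-3p, were followed here among 1907 miRNA names (the species prefix mmu is left out from here on). The arms were taken by name, and the miRNA was chosen by its measured difference between the genotypes, since its 5p and 1-3p arms stood among the largest fold changes. Those differences are therefore described without a test. Small RNA was sequenced from primary dermal fibroblasts of newborn mouse skin after 6 days in culture, at passage 1. The caNrf2 group (genotype Col1a2Cre-caNrf2, 3 mice) carried a constitutively active Nrf2 mutant together with a Cre recombinase driven by Col1a2, a collagen gene active in fibroblasts. The ctrl group (Col1a2Cre-wt, 3 mice) carried this Cre without the mutant. All 6 mice had the same mixed background, 50% C57Bl/6 and 50% FVB/N. Nrf2 is a transcription factor of antioxidant and detoxification genes. The counts cover miRNAs alone and hold no reading of the transgene or of how many cells had recombined.

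A miRNA gene is transcribed as a long primary RNA from which the enzymes Drosha and Dicer cut a hairpin and then a short duplex. One strand of the duplex, the 5p or the 3p arm, is usually retained as the guide that pairs with target mRNAs through its seed, and the other is mostly degraded. miR-138-5p is the guide arm and is best known from the brain, where it was shown in rat neurons to limit the size of dendritic spines. In human mesenchymal stem cells miR-138 was reported to restrain bone formation, and its precursor has been found in more tissues than the mature miRNA.

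The sequences show why only the 3p arms tell the precursors apart, and are given from RefSeq (GRCm38.p6, the assembly behind mm10), 5′ to 3′, with the seed (bases 2 to 8) in capitals. The 5p arm is identical in both precursors.
miR-138-5p: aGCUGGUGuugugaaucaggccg
miR-138-1-3p: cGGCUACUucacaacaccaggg
miR-138-2-3p: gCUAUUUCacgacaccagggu
None of the other mature names in the RefSeq table, which holds 1679, shares the seed of any of these arms. The hairpins follow, with the annotated arms in capitals.
Mir138-1: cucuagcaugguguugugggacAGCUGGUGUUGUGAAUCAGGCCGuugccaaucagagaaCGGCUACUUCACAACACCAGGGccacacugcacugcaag
Mir138-2: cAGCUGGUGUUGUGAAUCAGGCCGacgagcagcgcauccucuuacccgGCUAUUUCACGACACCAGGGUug
Mir138-1 spans 99 bases of the plus strand of chromosome 9 (122682876 to 122682974, mm10) and lies in exon 1 of Gm47135, annotated by GENCODE M21 as a transcribed unprocessed pseudogene. Mir138-2 spans 71 bases of the plus strand of chromosome 8 (94324311 to 94324381) and lies in the only exon of C78859, a long noncoding RNA of 5943 bases.

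The precursors differ in their loops and in a few bases of the 3p arm. The loop between the arms has 15 bases in Mir138-1 and 24 in Mir138-2. In the 22-base window of miR-138-1-3p and the matching window of the Mir138-2 hairpin, 20 bases are the same. With positions counted from 1 at the 5′ end of miR-138-1-3p and its base given first, the differences are C7U and A13G, in capitals here.
Mir138-1 window: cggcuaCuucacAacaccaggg
Mir138-2 window: cggcuaUuucacGacaccaggg
The annotated start of miR-138-2-3p lies 2 bases further in, so the seeds of the 3p arms differ by frame as well as by base. In RNAfold's predicted structures 18 bases of the 5p arm pair with the 3p arm in Mir138-1 and 16 in Mir138-2, at a predicted energy of -45.5 and -29.3 kcal/mol for the whole annotated hairpins, which differ in length.

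Library totals ranged from 13733970 to 28237159 counts in caNrf2 and from 10443268 to 20595024 in ctrl fibroblasts. Of the 697 tested miRNAs, 25.7% were called (edgeR quasi-likelihood test, Benjamini-Hochberg adjusted p under 0.05), 98 of them higher and 81 lower in caNrf2, and the median log2 fold change was 0.03. In bulk samples such as these, fewer cells of a type and less RNA per cell cannot be told apart. The 8 listed fibroblast miRNAs summed to between 260755 and 294457 CPM (counts scaled to a common library size with TMM factors) in caNrf2 libraries and between 282871 and 290311 CPM in ctrl libraries. Of these 8, 3 were called lower in caNrf2 cells (miR-199a-5p, miR-199a-3p and miR-10b-5p) and none was called higher. The others did not pass and went both ways. The log2 fold changes were 0.28 for miR-143-3p, 0.31 for miR-145a-5p, 0.03 for miR-21a-5p, -0.27 for miR-214-3p and -0.26 for miR-196a-5p.

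The guide arm was high in every caNrf2 library. miR-138-5p had 709, 770 and 603 CPM in caNrf2 libraries 1, 2 and 3, against 73.4, 50.4 and 65.8 CPM in ctrl libraries 1, 2 and 3. The groups did not overlap, as for 41.6% of all tested miRNAs, and the lowest caNrf2 library held 8.22 times the level of the highest ctrl library. These levels rest on 10107 to 18534 counts per library in caNrf2 and on 762 to 1332 in ctrl. By abundance among all names, miR-138-5p took ranks 81 to 94 in caNrf2 libraries and ranks 214 to 238 in ctrl libraries, so it was a mid-abundance miRNA of control fibroblasts rather than an absent one. The log2 fold change was 3.46 ± 0.15 (SE, edgeR).

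The 3p arm of Mir138-1 was scarce in ctrl cells and stood apart even further. miR-138-1-3p had 110, 93.4 and 86.9 CPM in caNrf2 libraries 1, 2 and 3, against 6.65, 2.80 and 3.85 CPM in ctrl libraries 1, 2 and 3. The lowest caNrf2 library was 13.1 times the highest ctrl library. The ctrl values came from 69, 46 and 78 counts and the caNrf2 values from 1565, 2247 and 2428 counts. The log2 fold change was 4.49 ± 0.27 (SE, edgeR). Every library of both groups lay above the filter's 0.54 CPM for miR-138-5p and for miR-138-1-3p, so neither arm entered the fit through the caNrf2 libraries alone.

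The remaining arm, from Mir138-2, stayed at the edge of detection. miR-138-2-3p had 0, 4 and 5 counts in caNrf2 libraries 1, 2 and 3 and 1, 2 and 2 counts in ctrl libraries 1, 2 and 3. It did not pass the filter on low counts, which left 2 of the 3 arms in the fit. Its 9 summed caNrf2 counts made 0.136 CPM (exact Poisson 95% interval 0.0622 to 0.258) and its 5 summed ctrl counts made 0.105 CPM (0.0342 to 0.246). These intervals overlap and cover counting error alone, as do all intervals here. The ratio of these summed shares, caNrf2 over ctrl, was 1.29 with an exact interval from 0.389 to 4.91. For miR-138-1-3p the same ratio was 23.2 with an interval from 20.1 to 26.9. Both intervals pool the reads of 3 mice a group and hold no spread between mice, and the miR-138-1-3p ratio is among the values that miR-138 was chosen for.

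**Figure D1:**
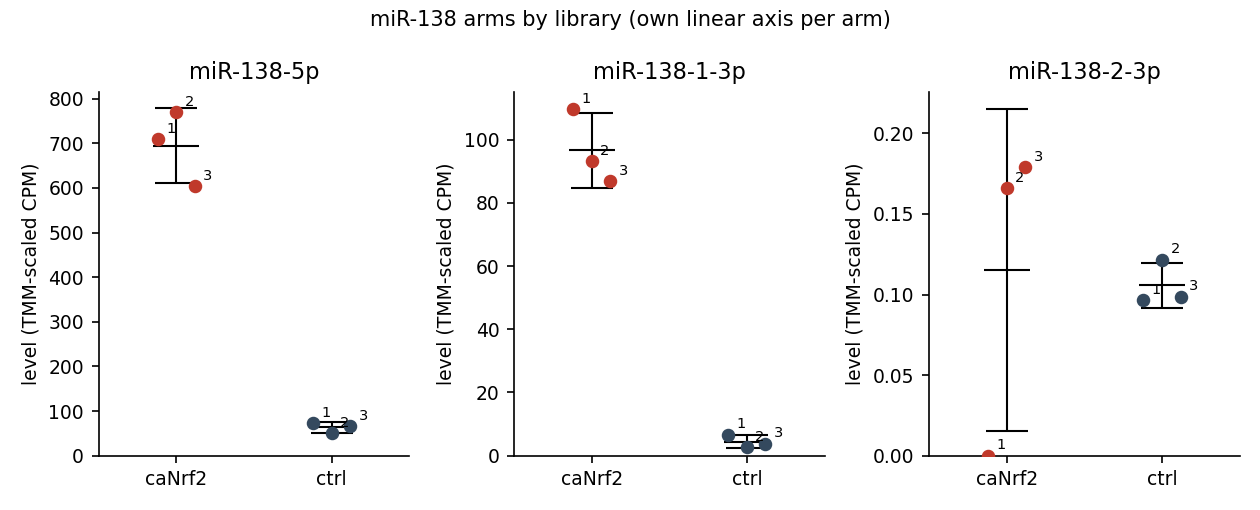
Levels of the 3 miR-138 arms in TMM-scaled CPM, with a linear axis of its own for each arm, in caNrf2 (left) and ctrl (right) libraries. Points are single libraries with their replicate numbers, and bars give the mean ± SD (n = 3). miR-138-5p and miR-138-1-3p do not overlap between the groups, as for 41.6% of all tested miRNAs, while miR-138-2-3p never exceeds 5 counts.

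The precursors were not used equally, as far as the 3p arms show it. Of the counts that name a precursor by its 3p arm, miR-138-1-3p held 6240 of 6249 in caNrf2 cells, or 99.86% (exact Clopper-Pearson 95% interval 99.73 to 99.93%). In ctrl cells it held 193 of 198, or 97.5% (94.2 to 99.2%). Mir138-1 was thus the source of nearly all precursor-specific reads in both groups. The share from Mir138-2 was 0.144% (0.0659 to 0.273%) in caNrf2 cells and 2.53% (0.825 to 5.79%) in ctrl cells, with about the same few counts over very different totals. How many miR-138-5p reads came from either precursor cannot be read from these counts, since the 5p sequences are identical and the arms of each hairpin need not survive in the same proportion.

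Such one-sided use of a precursor was not peculiar to miR-138 by count. In the files 26 other miRNAs have a shared arm and numbered opposite arms from a first and a second precursor, and 19 of them had at least 100 counts over the numbered arms in each group. In 8 of these 19 the larger precursor held at least 95% of the numbered arms in both groups. Among these were miR-129, with 99.3% from its second precursor in caNrf2 and 98.1% in ctrl cells, and miR-24, with 99.7% from its second precursor in both. The others ranged down to 50.9% in caNrf2 cells for miR-196a, whose precursors were used almost evenly. Across the 19, the share moved by a median of 0.987 percentage points and by at most 7.50.

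The arms of Mir138-1 did not differ between the groups in the same proportion. There were 6.46, 8.25 and 6.94 miR-138-5p counts for each miR-138-1-3p count in caNrf2 libraries 1, 2 and 3, against 11.04, 18.0 and 17.1 in ctrl libraries 1, 2 and 3. The groups did not overlap, as for 17.2% of 233 other hairpins with both arms tested. In other words, the 3p arm made up 13.4%, 10.8% and 12.6% of the counts of both arms in the caNrf2 libraries and 8.30%, 5.26% and 5.53% in the ctrl libraries. The exact intervals of the nearest libraries, 10.39 to 11.24% in caNrf2 library 2 and 6.52 to 10.39% in ctrl library 1, touched at this rounding. The mean share was 12.3% ± 1.33 in caNrf2 and 6.36% ± 1.68 in ctrl cells (SD, n = 3 each). Since the ratio is taken within a library, no scaling between libraries enters it, and its log2 value was 1.07 lower in caNrf2 cells (2.84 ± 0.18 against 3.91 ± 0.39 in ctrl, SD). miR-138-5p can hold reads of either precursor, so the ratio is not strictly that of one hairpin.

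**Figure D2:**
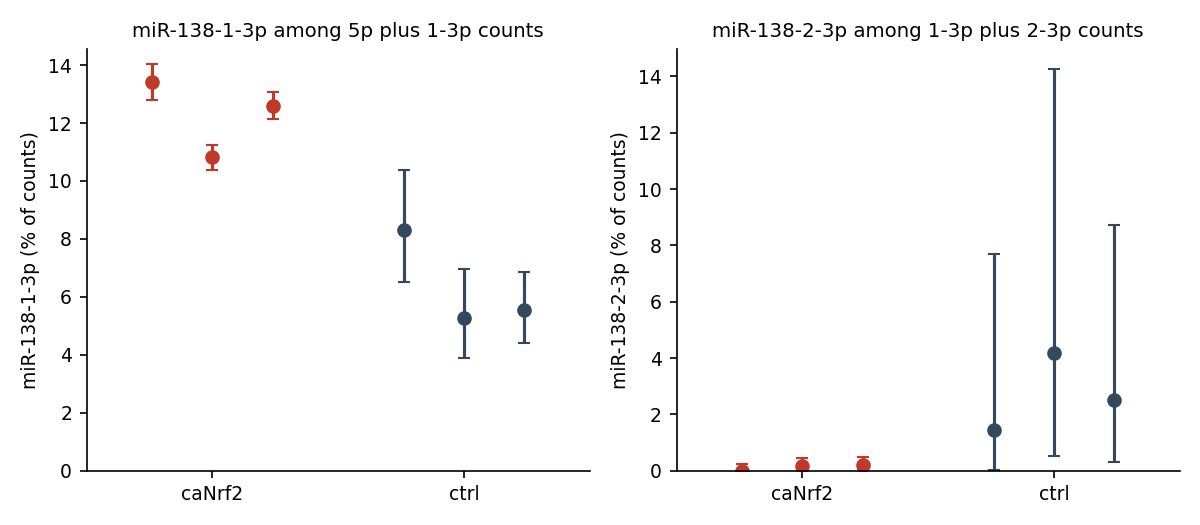
Left, miR-138-1-3p as a percentage of the summed miR-138-5p and miR-138-1-3p counts; right, miR-138-2-3p as a percentage of the summed miR-138-1-3p and miR-138-2-3p counts, in caNrf2 (left of each panel) and ctrl libraries 1 to 3. Points are libraries and bars are exact 95% binomial intervals. All caNrf2 points lie above all ctrl points on the left (10.8 to 13.4% against 5.26 to 8.30%) and below them on the right. Ratios of 5p to 3p did not overlap between the groups in 17.2% of 233 other hairpins. The right panel sets at most 5 miR-138-2-3p counts per library against very different miR-138-1-3p totals. Its intervals overlap, as in caNrf2 library 3 (0.0668 to 0.479%) and ctrl library 1 (0.0362 to 7.70%).

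This shift is the difference between the fold changes of the arms, which are the values miR-138 was chosen for, so its place among other hairpins is a description only. With 0.5 added to each count, the log2 ratio of 5p to 3p changed by -1.06 for miR-138, caNrf2 minus ctrl, and by a median of 0.159 in absolute value over 233 other hairpins with both arms tested. Of those, 17.2% had ratios that did not overlap between the groups. A change as large was found in 2 of the 233, miR-101b and miR-1231, whose less abundant arms averaged 0.542 and 1.14 CPM. miR-138 reached a mean of 10 CPM in both arms through its caNrf2 libraries. Its less abundant arm, miR-138-1-3p, averaged 96.7 CPM in caNrf2 and 4.43 CPM in ctrl cells, so its ctrl ratio rests on few counts. With both arms at a mean of at least 10 CPM, 114 other hairpins remained, and none changed as much. The 3 largest changes there were -0.54 for miR-134, 0.52 for miR-376b and 0.48 for miR-212. miR-134 and miR-376b belong to the Dlk1-Dio3 imprinted cluster, and miR-212 is known as an activity-regulated neuronal miRNA.

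**Figure D3:**
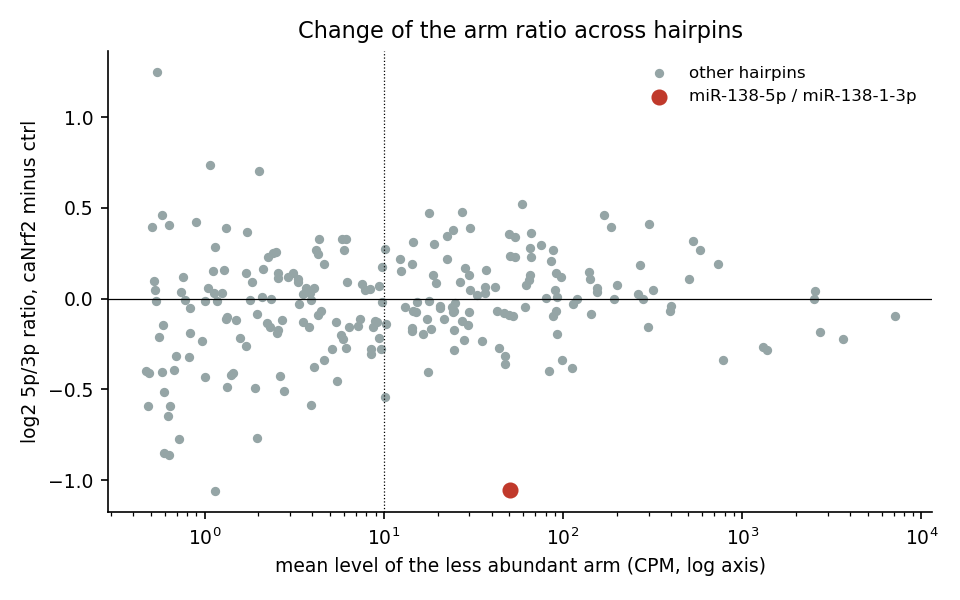
Change of the log2 ratio of 5p to 3p counts, caNrf2 minus ctrl, for each hairpin with both arms tested, against the mean CPM of its less abundant arm on a log axis. The red point is miR-138 at -1.06. Right of the dotted line at 10 CPM the grey points lie between -0.54 and 0.52. miR-138 lies right of this line through its caNrf2 libraries, since miR-138-1-3p averaged 4.43 CPM in ctrl cells.

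Spread within the groups was wider than counting alone gives. The coefficient of variation of miR-138-5p was 12.1% in caNrf2 and 18.5% in ctrl libraries, where counting error would give 0.841% and 3.30%. For miR-138-1-3p it was 12.2% in caNrf2 and 44.9% in ctrl libraries, against 2.23% and 12.8% from counting. Within ctrl the arms kept the same order, with library 1 highest and library 2 lowest for both. Within caNrf2 they did not: library 2 was highest for the 5p arm and library 1 for the 3p arm.

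By log2 fold change miR-138-1-3p had rank 1 and miR-138-5p rank 3 among the tested miRNAs. Between them stood miR-344d-2-5p (4.34 ± 0.61, SE), which had 65 counts over the caNrf2 and 2 over the ctrl libraries. At a mean of 0.037 CPM in ctrl, below the filter's 0.54 CPM, it entered the fit through the caNrf2 libraries where it was high. Just below miR-138-5p came miR-344b-3p (3.33 ± 0.20) and miR-344d-3p (3.21 ± 0.21). These values sit beside the choice of miR-138 and are given as a description.

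**Figure D4:**
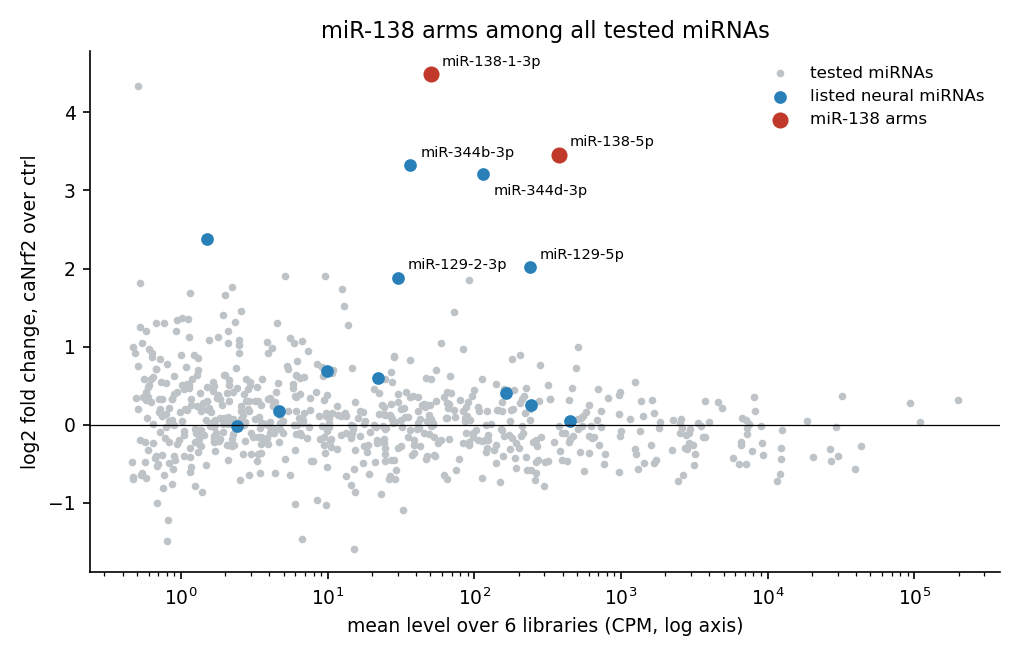
Log2 fold change, caNrf2 over ctrl, of the 697 tested miRNAs against their mean CPM over 6 libraries on a log axis. Red points are the miR-138 arms at 4.49 and 3.46, blue points are the listed neural miRNAs, and the other miRNAs are grey.

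The miRNAs with the profiles most like that of miR-138-5p were 2 pairs from neural families and a blood cell miRNA. Likeness was the root mean square difference between log2 CPM profiles over the 6 libraries, each centred on its own mean, among 369 candidates with a mean of at least 10 CPM. The difference was 0.38 for miR-344b-3p, 0.44 for miR-344d-3p, 0.74 for miR-129-5p, 0.83 for miR-129-2-3p and 0.91 for miR-142a-5p, where the median candidate was at 1.76. For comparison, miR-138-1-3p was 0.50 from its own 5p arm. The measure is set mostly by the size of the genotype difference, for which miR-138 was chosen, so the likeness is a description only. miR-344b-3p reached a mean of 10 CPM through its caNrf2 libraries, with a mean of 66.4 CPM there and 6.54 CPM in ctrl cells. Within ctrl the profiles parted: library 1 was the highest for both miR-138 arms, with 73.4 CPM of miR-138-5p, and the lowest for miR-344b-3p, with 4.62 CPM there and 7.49 and 7.50 CPM in ctrl libraries 2 and 3. It was also the lowest for miR-344d-3p, which had 17.2, 31.2 and 18.4 CPM in ctrl libraries 1, 2 and 3.

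**Figure D5:**
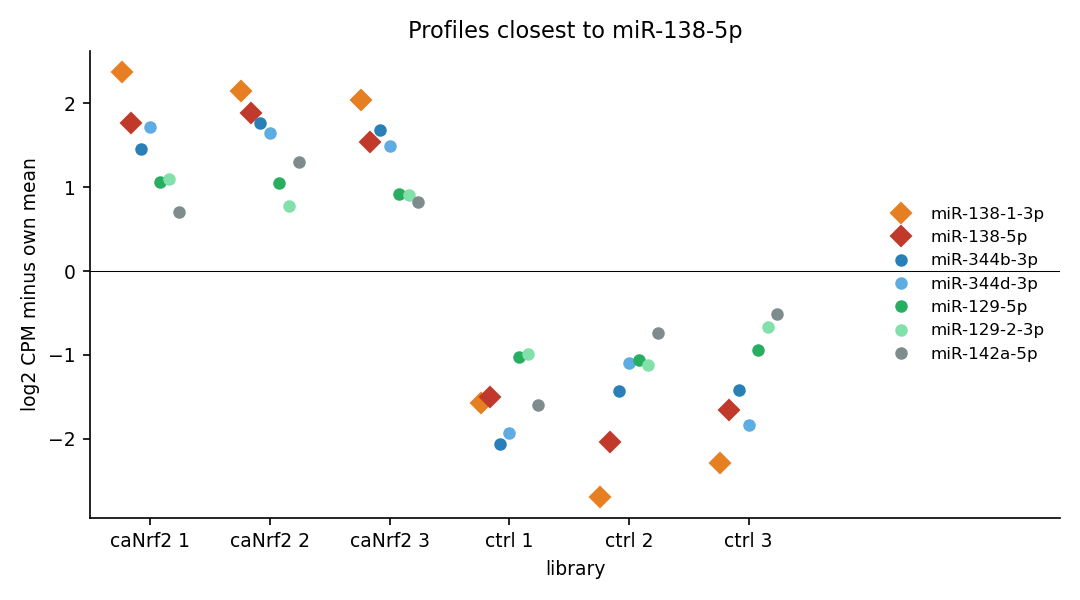
Log2 CPM minus each miRNA's own mean in caNrf2 libraries 1 to 3 (left) and ctrl libraries 1 to 3 (right). Diamonds are the miR-138 arms and circles the 5 most similar profiles; all lie above 0 in caNrf2 and below 0 in ctrl, and in ctrl library 1 the miR-344 arms have their lowest and the miR-138 arms their highest ctrl values.

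Other miRNAs known from neural tissue were partly higher too. Of 20 listed, 12 were tested, 8 rose in caNrf2 cells and none fell, beside 14.1% higher and 11.6% lower over all tested miRNAs. Their median log2 fold change was 0.64. miR-344-3p, 1 of the 8, lay below the filter's level in at least 1 ctrl library and entered the fit through the caNrf2 libraries where it was high. Without it 7 of 11 rose, with a median of 0.60. The list was drawn up with these results known and holds the miR-344 and miR-129 arms, so its count is no independent support. miR-344b-3p, miR-344d-3p, miR-129-5p and miR-129-2-3p rose 10.03-, 9.28-, 4.06- and 3.68-fold. miR-344-3p averaged 2.49 ± 0.14 CPM in caNrf2 and 0.498 ± 0.222 CPM in ctrl cells (SD, n = 3 each).

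The remaining rises were small beside that of miR-138. miR-128-3p, a brain-enriched miRNA, averaged 188 ± 4.02 CPM in caNrf2 and 142 ± 3.41 CPM in ctrl cells (edgeR adjusted p = 0.00551). miR-9-5p, a miRNA of neural progenitors, averaged 12.3 ± 0.976 CPM in caNrf2 and 7.58 ± 1.91 CPM in ctrl cells (edgeR adjusted p = 0.0219). Its call was lost without ctrl library 1 (adjusted p = 0.0613) or caNrf2 library 1 (0.0527), 2 (0.0687) or 3 (0.0606). miR-338-3p, known from oligodendrocytes, averaged 26.5 ± 3.61 CPM in caNrf2 and 17.4 ± 2.48 CPM in ctrl cells (edgeR adjusted p = 0.0204), and its call was lost without ctrl library 1 (0.0644) or caNrf2 library 2 (0.0818) or 3 (0.0779). miR-132-3p, miR-218-5p, miR-219a-5p and miR-7a-5p did not pass, with log2 fold changes of 0.26, 0.04, -0.01 and 0.17.

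The neuron and glia markers spread from the edge of detection to miR-128-3p at 188 CPM in caNrf2 and 142 CPM in ctrl cells. miR-124-3p, the leading miRNA of neurons, had 9 counts over the caNrf2 and 8 over the ctrl libraries. miR-219a-5p, a miRNA of myelinating glia, averaged 2.38 ± 0.173 CPM in caNrf2 and 2.46 ± 0.552 CPM in ctrl cells. The 8 neuron and glia markers, of which miR-124-3p, miR-137-3p and miR-153-3p were at 0 in at least 1 library, summed to between 227 and 233 CPM in caNrf2 and between 162 and 176 CPM in ctrl libraries, mostly from miR-128-3p. Of the 4 tested, miR-219a-5p did not pass and the other 3 rose.

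Among markers of other cell types, those of muscle and some of blood were also higher in caNrf2 cells, where 14.1% of all tested miRNAs were higher. All 5 tested of 6 muscle markers rose, and the 6 summed to between 564 and 747 CPM in caNrf2 and between 347 and 426 CPM in ctrl libraries, while miR-1a-3p, which is abundant in heart and skeletal muscle, was at 16 counts over caNrf2 and 9 over ctrl. Of 6 blood markers miR-142a-3p, miR-142a-5p and miR-223-3p rose, while miR-451a, miR-150-5p and miR-144-3p did not pass, with log2 fold changes of 0.48, -0.10 and -0.998. The 6 summed to between 157 and 234 CPM in caNrf2 and between 37.0 and 70.7 CPM in ctrl libraries. None of the 7 keratinocyte, 2 endothelial or 2 melanocyte markers passed in edgeR. The keratinocyte markers summed to between 1600 and 2121 CPM in caNrf2 and between 1035 and 1865 CPM in ctrl libraries. No marker in these 5 lists was at 0 in all libraries, and the part of these cell types in the miR-138 difference was not tested.

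Little else is annotated close by. Within 1 Mb of Mir138-1 the RefSeq table lists no other miRNA, and near Mir138-2 it lists Mir7072, 181 kb away, whose arms had 0 counts over the caNrf2 and 1 count over the ctrl libraries. No neighbouring miRNA therefore reports on transcription through either locus in these libraries, and the host transcripts were not measured.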

How the data were processed

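Each deposited file holds counts per mature miRNA for 1 library, which were taken to be raw read counts. Tools named in the submitters' processing notes are cutadapt, Bowtie, featureCounts, CASAVA 1.8 and edgeR, with the mm10 build, and no order or settings. How reads fitting both miR-138 precursors were handled is not given in the sources used here, and the level of miR-138-5p may depend on it. No molecular identifiers are named. The file headers give 1 run and lane for all libraries.

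All names were fitted together in R 4.3.3 by edgeR's quasi-likelihood test (edgeR 4.0.16; glmQLFit and glmQLFTest, genotype only), after filterByExpr at minimum count 10 and TMM scaling, with Benjamini-Hochberg adjustment and a threshold of 0.05. SEs came from the F statistic. The miR-138 arms and all lists were chosen with earlier results of these data known. Named miRNAs followed a fixed rule: the arms, the 5 nearest profiles, called neural miRNAs, those with like precursor naming, neighbours within 1 Mb, those next to miR-138-5p in fold change, and the 3 hairpins with the largest arm-ratio change at 10 CPM or more. miR-101b, miR-1231, the fibroblast, blood, muscle and neural markers named, and the miRNAs that did not pass were named after their values were seen. Of the 1907 names, 1623 matched RefSeq's table. Structures came from RNAfold 2.7.2. DESeq2 1.42.0, limma-voom (limma 3.58.1), other scalings and filters, a replicate block and left-out libraries were alternatives. Each library comes from a different mouse per the series design. Same-group libraries differed far beyond sampling noise (chi-square per degree of freedom at least 64.6).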

Additional observations from a re-analysis of the deposited data

How the results depend on the processing

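The log2 fold change stayed between 3.31 and 3.57 for miR-138-5p and between 4.23 and 4.84 for miR-138-1-3p over 14 alternatives, the extremes being without ctrl library 2 and without ctrl library 1. The log2 arm ratio, caNrf2 minus ctrl, lay between -1.29 and -0.94 over 8 alternatives, lowest without ctrl library 1 and highest without ctrl library 2. The 8 include the replicate block, which cannot change this difference in a balanced design. The Mir138-1 share lay between 99.81 and 99.90% in caNrf2 and between 96.9 and 98.0% in ctrl cells. Over all tested miRNAs, 60 were higher and 71 lower when a mean of 10 CPM was required and fewer miRNAs were tested, in place of 98 and 81. Without ctrl library 3, 71 were higher and 55 lower. The neural list had 6 to 8 calls. With RLE size factors and with library totals alone, 5 of the 5 nearest profiles were the same.

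The replicate numbers gave no sign of pairing the libraries: same-numbered caNrf2 and ctrl libraries had deviations correlated at 0.18, 0.16 and -0.22. Differently numbered ones lay between -0.38 (caNrf2 library 2 with ctrl library 1) and 0.33 (caNrf2 library 2 with ctrl library 3). Whether libraries pair in another order was not tested. With the replicate block 102 miRNAs were higher and 87 lower, and the log2 fold change was 3.47 for miR-138-5p and 4.52 for miR-138-1-3p. The arm-ratio difference stayed at -1.07 by design, since each replicate number holds a library of each group. Depth limits miR-138-2-3p, for which 3 counts correspond to 0.106 to 0.287 CPM.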

Other observations

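In 3 of the 26 other miRNAs with a shared arm and numbered opposite arms, the numbered arms held more counts than the shared one. miR-24-3p had 38629 counts over the caNrf2 and 24761 over the ctrl libraries, while miR-24-2-5p had 74365 over the caNrf2 and 39395 over the ctrl libraries. miR-7a-5p had 330 counts over the caNrf2 and 207 over the ctrl libraries, while miR-7a-1-3p had 976 in caNrf2 and 707 in ctrl. miR-219a-5p had 160 counts in caNrf2 and 113 in ctrl, while miR-219a-1-3p had 625 in caNrf2 and 543 in ctrl. miR-138 was not among them, its shared arm holding 45500 counts over the caNrf2 and 2923 over the ctrl libraries. That does not show how reads fitting both miR-138 precursors were handled.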
